A study of Mus musculus with 12 samples.

Results

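The genes described here are 55 genes of ribosome biogenesis and of the growth programme driven by the transcription factor MYC, followed in mouse leukaemia cells kept for 24 h with a JAK inhibitor, an LSD1 inhibitor, both or neither. They were chosen by symbol from a list of nucleolar factors, RNA polymerase I genes, polyamine and nucleotide enzymes, and a gene entered the description when its mean was at least 10 normalised read counts over the 12 libraries. All 55 of the 55 listed symbols were among the 24411 symbols of the deposited table, and all 55 passed that limit, as 11484 symbols did in all. The lowest mean over all libraries was that of Fbl, at 96.7.

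RNA was sequenced from BALB/c cells whose source is labelled bone marrow and which were made by retroviral transfer to express mutant CSF3R, the receptor for granulocyte colony-stimulating factor, together with mutant CEBPA, a transcription factor of granulocyte formation. All 4 groups carry both introduced genes, so that none is a control without them, and the labels name no clone, animal or number of cultures. Cells grew in IMDM with 20% FBS and received for 24 h DMSO as solvent, ruxolitinib at 50 nM, GSK-LSD1 at 2 nM, or both drugs at these doses. Ruxolitinib blocks JAK1 and JAK2, the kinases through which the CSF3R protein signals. GSK-LSD1 blocks LSD1, which takes methyl groups off histone H3. Each group had 3 libraries. The labels do not say that these came from separate cultures, so the p-values measure the spread between these samples, which may be technical.

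Ribosomes are assembled in the nucleolus, where RNA polymerase I copies the ribosomal DNA into a long precursor RNA. Small nucleolar ribonucleoproteins (snoRNPs) of the box C/D and box H/ACA classes modify that precursor, and separate sets of proteins cut and fold it into the small and the large subunit. MYC is known to bind the promoters of many of these genes, as well as those of polyamine and nucleotide enzymes, in growing cells, and their messenger RNAs commonly fall when progenitors leave the cell cycle and mature.

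MYC and its partner MAX bind the E-box CACGTG, a palindrome that reads alike on both strands and was the only motif searched. Promoter windows from 250 bases before to 50 bases after a gene's start (RefSeq, GRCm38.p6) were at hand for 49 of the 55 genes. The window held a CACGTG in 9 of the 49 (18.4%), against 12% of 8865 tested genes and 8.09% of 27025 symbols with a window of the same length. The 9 were Imp4, Ltv1, Nme1, Nop2, Pes1, Rrn3, Tsr1, Utp20 and Wdr43. The 4 stretches below, from the 3 genes whose E-box lies upstream of both annotated starts, show what such a match looks like. They are printed 5′ to 3′ along the gene's strand with the E-box in capitals. The match begins 60 bases before the start in Nop2, 121 before it in Imp4, and 215 and 48 before it in Rrn3, which has a pair. The Imp4 stretch also reaches into annotated exons of Ccdc115 and of Gm28306. A match describes these letters and is not a binding site, and nothing measured here shows MYC on them.
Nop2, chr6:125131776-125131875, plus strand: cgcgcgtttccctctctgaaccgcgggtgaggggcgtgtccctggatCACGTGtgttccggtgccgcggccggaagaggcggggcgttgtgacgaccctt
Imp4, chr1:34439661-34439760, plus strand: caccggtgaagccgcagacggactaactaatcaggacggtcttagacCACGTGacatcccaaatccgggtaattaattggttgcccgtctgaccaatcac
Rrn3 upstream match, chr16:13780449-13780536, plus strand: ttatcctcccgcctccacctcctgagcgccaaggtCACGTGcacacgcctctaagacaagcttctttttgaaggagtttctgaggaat
Rrn3 match near the start, chr16:13780604-13780698, plus strand: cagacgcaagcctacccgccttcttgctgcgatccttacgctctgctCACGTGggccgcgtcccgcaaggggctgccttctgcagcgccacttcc

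The 12 libraries had nearly the same depth, with 8260995 to 8528400 units per library, where a unit is the smallest step between values. The first principal component (54.7% of the variance over tested genes) separated the 6 libraries with GSK-LSD1 from the 6 without it. On the second (11.1%), ruxolitinib replicate 2 (-19.7) and combination replicate 3 (-17.3) stood apart from the other 10 libraries (-4.64 to 9.73). Counts against DMSO, and of the combination against GSK-LSD1, are given with and without both. Of the myeloid progenitor markers Mpo stood at 6385 to 12905 normalised counts over the 12 libraries and Kit at 15.8 to 57.5. Defining genes of T and NK cells (Cd4, Ncr1), B cells (Ms4a1, Pax5), red cells (Hba-a1, Hbb-bs) and endothelium (Cdh5) were listed at 0 in all 12.

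In DMSO the 55 genes together took 1.41% ± 0.003 (SD, n = 3) of each library's signal. This share was 1.33% ± 0.031 with ruxolitinib, 1.08% ± 0.004 with GSK-LSD1 and 0.999% ± 0.018 with both drugs, and no library of the last pair of groups reached the lowest library without GSK-LSD1. Per kilobase of merged exons, the highest gene in DMSO was Pa2g4 (2871 normalised counts), followed by Ncl (2206), Srm (1939) and Npm1 (1700). Fbl (26.9), Polr1e (77.4) and Wdr12 (96.8) were the lowest on that scale. Merged exons span all annotated transcripts and can exceed the length of the messenger RNA present, so this order may differ from that of abundance. Ncl had a mean of 22472 counts on 10188 merged bases, and Pa2g4 8049 on 2804. The merged exons of Wdr12 were 11955 bases. Across the 55 genes the Spearman correlation of level and change was -0.12 for GSK-LSD1 and -0.10 for both drugs, a description across genes that share their libraries.

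**Figure D1:**
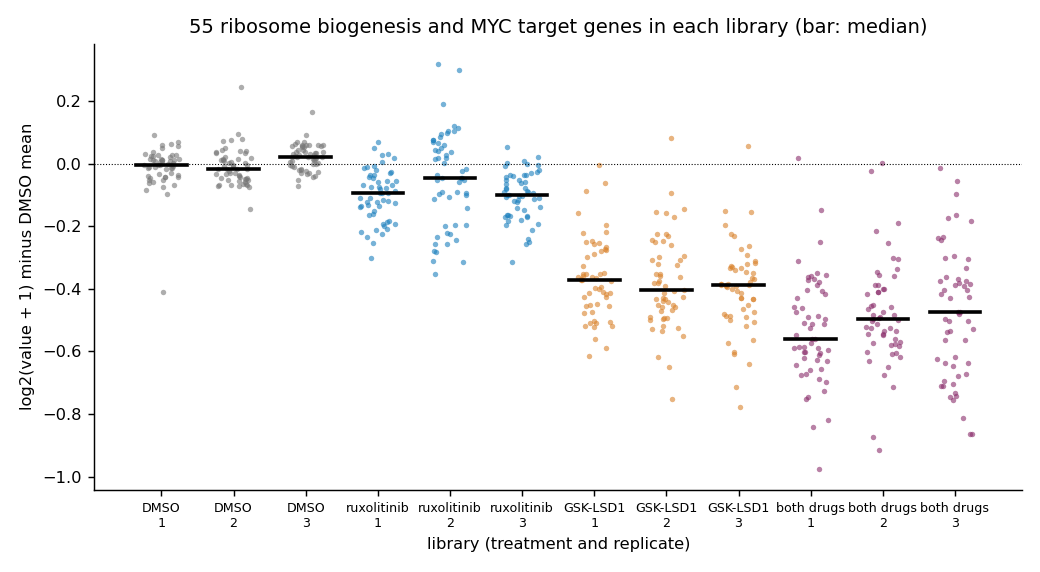
Each point is 1 of the 55 genes in 1 of the 12 libraries, on the vertical axis as log2(normalised count + 1) minus that gene's mean over the 3 DMSO libraries; bars mark the median of the 55 genes. The medians lie at -0.10 to -0.05 with ruxolitinib, -0.40 to -0.37 with GSK-LSD1 and -0.56 to -0.48 with both drugs.

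The comparison of GSK-LSD1 with DMSO asks what blocking LSD1 alone does to these genes. Of the 55 genes, 51 fell and none rose with limma at an adjusted p under 0.05, where 15.5% of all 11484 tested genes fell and 17% rose. The median change was -0.38 on the log2 scale for the 55 genes and -0.005 for all tested genes. In 52 of the 55 every GSK-LSD1 library lay below every DMSO library, against 26.5% of all tested genes (24.4% lay wholly higher). The whole range ran from -0.71 (Srm) to 0.05 (Heatr1). All changes are on the log2(value + 1) scale with the standard error of the fit. In bulk RNA a lower level in every cell and a change in which cells are present cannot be told apart, and values scaled within a library say nothing of the total RNA per cell.

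With both drugs 53 of the 55 fell against DMSO and none rose, beside 21.8% lower and 20.5% higher of all tested genes. The median change was -0.49 (all tested genes -0.01), with a range from -0.87 (Srm) to -0.03 (Heatr1), and every combination library lay below every DMSO library for 52 genes (26.8% of all tested genes, with 24.9% wholly higher). The 51 genes that fell with GSK-LSD1 alone all fell with both drugs, and Fbl and Polr1e passed in addition. Leaving out ruxolitinib replicate 2 and combination replicate 3 together left 51 and 52 genes lower in the same 2 comparisons. Both comparisons use the same 3 DMSO libraries.

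Ruxolitinib alone gave small values in the same direction. With limma none of the 55 passed in either direction, while 0.627% of all tested genes fell and 1% rose, and 11 genes (20%) had an unadjusted p under 0.05, all of them lower, as against 17.5% of all tested genes in either direction and 8.54% lower. The change was below 0 in 46 of the 55, and the median was -0.09 (all tested genes -0.001). The ruxolitinib libraries lay wholly below DMSO for 12 of the 55 genes, wholly above for none, and overlapped with DMSO for 43. Of all tested genes 12.8% lay wholly lower and 10.9% wholly higher. The nearest to the threshold were Ddx21 at -0.21 ± 0.06 (adjusted p = 0.0691), Ppat at -0.22 ± 0.06 (0.0788) and Odc1 at -0.22 ± 0.06 (0.0835). When ruxolitinib replicate 2 and combination replicate 3 were both left out, Ncl, Nolc1, Ddx21 and Odc1 (4 genes) passed as lower, and the calls over all genes went from 72 lower and 115 higher to 168 and 149 of 11492. GC content moved with this comparison: over 11053 tested genes the Spearman correlation of the change with transcript GC was 0.425, and over the 55 genes 0.34. After a correction for GC 4 genes passed as lower, Ddx21, Imp3, Srm and Odc1. That correction gave 153 lower and 136 higher calls over all genes.

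**Figure D2:**
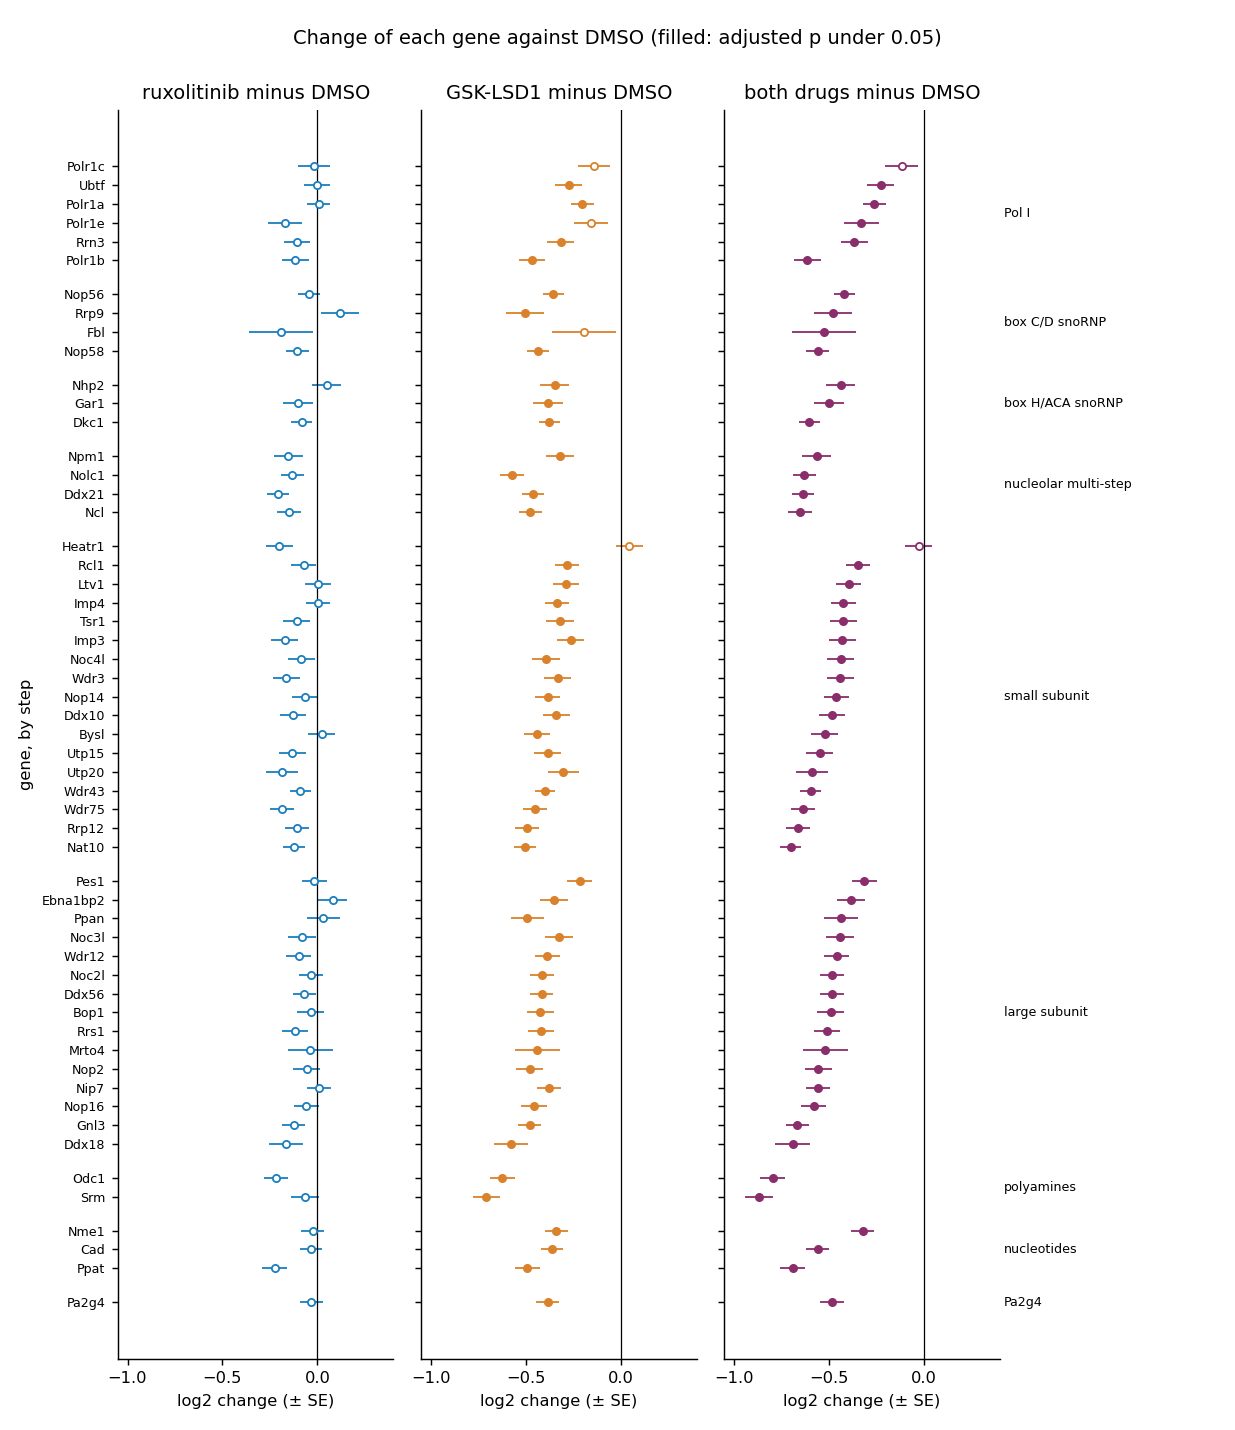
Change of each of the 55 genes against DMSO on the log2(value + 1) scale (horizontal, ± SE of the fit), grouped by step of ribosome biogenesis (vertical), for ruxolitinib, GSK-LSD1 and both drugs; filled points have an adjusted p under 0.05. No ruxolitinib point is filled, 51 are filled for GSK-LSD1 and 53 for both drugs, and Heatr1 stays near 0 in the last pair of panels.

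Markers of maturing cells moved with these 2 comparisons in the opposite direction. Of 8 tested mature neutrophil genes 5 rose with GSK-LSD1 and 8 with both drugs, beside 17% and 20.5% of all tested genes. The 10 listed genes summed to 5887 to 7231 normalised counts in DMSO, 6103 to 7607 with ruxolitinib, 10815 to 12388 with GSK-LSD1 and 16853 to 18653 with both. Of 8 tested monocyte and macrophage genes 7 rose with GSK-LSD1 and 8 with both. The 9 listed summed to 3923 to 4103, 4220 to 4496, 6667 to 6752 and 8028 to 8802 in that order of groups. The largest parts of the neutrophil sum were Mmp8 and S100a9, with means of 2074 and 2940 in DMSO and 8019 and 6632 with both drugs. Psap was the largest part of the monocyte sum, at 2708 and 5783. The mean of the neutrophil gene Ngp went from 51.1 in DMSO to 38.6 with GSK-LSD1 and 109 with both. No listed gene of either kind was at 0 in all libraries, but the late neutrophil genes Camp and Retnlg stayed at 0 to 5.97. Of the 3 tested erythroid genes 2 fell with GSK-LSD1 and 3 with both drugs, beside 15.5% and 21.8% of all tested genes. The 5 listed summed to 177 to 203 in DMSO, 187 to 225 with ruxolitinib, 80.6 to 104 with GSK-LSD1 and 84.8 to 180.0 with both. The part of these cells' markers in the fall of the 55 genes was not tested.

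RNA polymerase I and its factors had the smallest median fall of the steps. Of 6 genes 4 fell with GSK-LSD1 (median -0.24) and 5 with both drugs (median -0.29). Polr1b, which encodes the second-largest polymerase subunit (chr2:129100995-129126594, plus strand, GRCm38), stood at 931, 982 and 953 normalised counts in the DMSO libraries, 861, 833 and 952 with ruxolitinib, 699, 659 and 716 with GSK-LSD1 and 576, 625 and 674 with both drugs. No library with GSK-LSD1 reached any library without it, and the changes were -0.47 ± 0.07 (adjusted p = 3.58e-05) for GSK-LSD1 and -0.61 ± 0.07 (6.3e-07) for both. Rrn3, the initiation factor that links the polymerase to its promoter, was at 1224, 1229 and 1248 in DMSO, 1160.0, 1191 and 1086 with ruxolitinib, 965, 1042 and 970.3 with GSK-LSD1 and 969, 1061 and 852 with both drugs. It fell by 0.31 ± 0.07 and 0.37 ± 0.07, with combination replicate 3 the lowest library. Ubtf, which keeps the ribosomal DNA open for transcription, went from 2856, 2966 and 2939 in DMSO to 2429.8, 2498 and 2319 with GSK-LSD1 and 2258, 2449 and 2806 with both drugs, and stood at 2809, 3158 and 2796 with ruxolitinib. Combination replicate 3 came close to the DMSO libraries, and the change of -0.23 ± 0.07 was lost without combination replicate 1 (adjusted p = 0.0912).

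The other polymerase subunits changed less. Polr1a, the catalytic subunit, had 1795, 1647 and 1759 in DMSO, 1644, 1783 and 1798 with ruxolitinib, 1456, 1553 and 1513 with GSK-LSD1 and 1355, 1519 and 1474 with both drugs. Its fall of 0.20 ± 0.06 with GSK-LSD1 was lost without DMSO replicate 1, DMSO replicate 3 or GSK-LSD1 replicate 1 (adjusted p = 0.0588 to 0.0759), and that of 0.26 ± 0.06 with both drugs was not. Polr1e, a subunit found in polymerase I alone, gave 314, 298 and 293 in DMSO, 277, 258 and 269 with ruxolitinib, 284, 258 and 271 with GSK-LSD1 and 272, 235 and 217 with both drugs. Each drug alone left all 3 libraries below DMSO without passing the test (-0.17 ± 0.09 and -0.16 ± 0.09, adjusted p = 0.334 and 0.199), and both together passed at -0.33 ± 0.09 (0.00581). Polr1c, which polymerases I and III share (chr17:46243920-46248054, minus strand), had 474, 493 and 519 in DMSO, 501, 501 and 465 with ruxolitinib, 475, 464 and 409.9 with GSK-LSD1 and 399, 486 and 490.3 with both drugs. The groups overlapped in every comparison, and the changes of -0.14 ± 0.08 and -0.12 ± 0.08 did not pass (adjusted p = 0.213 and 0.282).

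The box C/D proteins carry the 2′-O-methylation of ribosomal RNA. Of 4 genes 3 fell with GSK-LSD1 (median -0.39) and all 4 with both drugs (median -0.50). Nop56 and Nop58 form the scaffold of every box C/D particle. Nop56 counts were 1899, 1962 and 1873 in DMSO, 1851, 1796 and 1912 with ruxolitinib, 1437, 1595 and 1458 with GSK-LSD1 and 1392, 1439 and 1462 with both drugs. Nop58 counts were 2996, 2926 and 3102 in DMSO, 2776, 2935 and 2676 with ruxolitinib, 2322, 2187 and 2166 with GSK-LSD1 and 2002, 2201 and 1932 with both drugs. For both genes all 6 libraries with GSK-LSD1 were below all 6 without it, with changes of -0.42 ± 0.06 and -0.56 ± 0.06 in the combination (adjusted p = 5.93e-06 and 2.39e-07). Rrp9, a protein of the U3 particle that starts small-subunit processing, was at 736, 706 and 775 in DMSO, 764, 921 and 735 with ruxolitinib, 553, 516 and 497 with GSK-LSD1 and 472, 486 and 650.4 with both drugs. Its fall was 0.50 ± 0.10 with GSK-LSD1 and 0.48 ± 0.10 with both drugs, and the libraries that stood apart on the second component, ruxolitinib replicate 2 and combination replicate 3, were the highest of their groups.

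Fbl encodes fibrillarin, the methyltransferase of the box C/D particle (chr7:28169710-28179269, plus strand). It had far fewer counts than its partners, 83.4, 132 and 125 in DMSO, 108, 91.4 and 92.9 with ruxolitinib, 91.9, 101 and 99.7 with GSK-LSD1 and 93.2, 80.9 and 60.7 with both drugs. DMSO replicate 1 was lower than all other libraries without GSK-LSD1, and the groups overlapped. The change of -0.19 ± 0.17 with GSK-LSD1 did not pass (adjusted p = 0.414). That of -0.52 ± 0.17 with both drugs did (0.0159), but not without DMSO replicate 2, DMSO replicate 3 or combination replicate 3 (0.0784 to 0.0976).

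The box H/ACA proteins carry the conversion of uridine to pseudouridine, and Dkc1, Gar1 and Nhp2 also belong to telomerase. All 3 fell with GSK-LSD1 (median -0.37) and with both drugs (median -0.50). Dkc1, the pseudouridine synthase itself (chrX:75095854-75109777, plus strand), was at 2667, 2495 and 2501 in DMSO, 2451, 2388 and 2393 with ruxolitinib, 1999, 1967 and 1941 with GSK-LSD1 and 1702, 1750.0 and 1596 with both drugs. In that order each group lay wholly below the one before it, and its changes were -0.08 ± 0.05 (adjusted p = 0.448, not past the test), -0.37 ± 0.05 (2.33e-05) and -0.60 ± 0.05 (2.17e-08). Gar1 had 1023, 1133 and 1077 in DMSO, 978, 1106 and 929.9 with ruxolitinib, 903, 747 and 834 with GSK-LSD1 and 782, 807 and 701 with both drugs, and fell by 0.38 ± 0.08 and 0.50 ± 0.08. Nhp2 had 1602, 1555 and 1625 in DMSO, 1671, 1714 and 1564 with ruxolitinib, 1366, 1179 and 1219 with GSK-LSD1 and 1046, 1155 and 1351 with both drugs and fell by 0.35 ± 0.08 and 0.44 ± 0.08. No library with GSK-LSD1 was as high as a library without it for either gene.

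Among the 4 nucleolar proteins that act at several steps, all fell in both comparisons (medians -0.47 and -0.63). Ncl encodes nucleolin, which binds the precursor RNA as it is made (chr1:86344719-86359400, minus strand), and had the most counts of all 55 genes, 22259, 22987 and 22172 in DMSO, 19654, 22208 and 19005 with ruxolitinib, 15684, 16418 and 16429 with GSK-LSD1 and 14109.9, 15057 and 13727 with both drugs. GSK-LSD1 libraries were all below those without it and combination libraries were all below GSK-LSD1, with changes of -0.47 ± 0.06 and -0.65 ± 0.06 against DMSO. Npm1 encodes nucleophosmin, an abundant chaperone of the outer nucleolus, and was at 4815, 4086 and 4693 in DMSO, 4189, 4219.7 and 3799.6 with ruxolitinib, 3779, 3675 and 3427 with GSK-LSD1 and 3252, 3252 and 2704 with both drugs. It fell by 0.32 ± 0.07 with GSK-LSD1 and by 0.56 ± 0.07 with both.

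Nolc1, a chaperone of snoRNPs, dropped from 4726, 4746 and 4648 in DMSO to 3192, 3216 and 3089 with GSK-LSD1 and 2793, 3042 and 3324 with both drugs, and was at 4133, 4562 and 4192 with ruxolitinib. Its change was -0.57 ± 0.06 with GSK-LSD1 and -0.63 ± 0.06 with both drugs, and those 2 groups overlapped. Ddx21, an RNA helicase that joins polymerase I transcription to processing, had 5355, 5374 and 5482 in DMSO, 4667, 4558 and 4797 with ruxolitinib, 3759, 4018 and 4011 with GSK-LSD1 and 3516, 3727 and 3201 with both drugs. Each group lay wholly below the one before it, and the fall with both drugs was 0.64 ± 0.06 (adjusted p = 2.38e-08).

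Of the 17 small-subunit factors 16 fell with GSK-LSD1 (median -0.34) and the same number with both drugs (median -0.46). Nat10, the acetyltransferase that modifies small-subunit RNA (chr2:103721256-103761270, minus strand), had 1624, 1651 and 1636 in DMSO, 1418, 1571 and 1523 with ruxolitinib, 1154, 1165 and 1142 with GSK-LSD1 and 977, 997 and 1046 with both drugs. Each group lay wholly below the one before it, and Nat10 fell, with changes of -29.5% for GSK-LSD1 and -38.5% for both drugs (adjusted p = 9.02e-07 and 3.99e-09). Rrp12, a late factor of subunit maturation and export, was at 1140.0, 1079 and 1138 in DMSO, 950.1, 1084 and 1086 with ruxolitinib, 785, 809 and 788 with GSK-LSD1 and 693, 700.4 and 725 with both drugs, a fall of 0.49 ± 0.06 and 0.66 ± 0.06. Wdr43, which belongs to the complex that first binds the growing precursor, went through 2115, 1984 and 2146 in DMSO, 1983, 1949 and 1927 with ruxolitinib, 1549, 1597 and 1589 with GSK-LSD1 and 1369.7, 1425 and 1339 with both drugs, a fall of 0.40 ± 0.05 and 0.59 ± 0.05. For Wdr43 every group lay below the one before it, whereas DMSO and ruxolitinib overlapped for Rrp12. The other 13 small-subunit genes that fell had changes from -0.26 ± 0.07 (Imp3) to -0.45 ± 0.06 (Wdr75) with GSK-LSD1 and from -0.35 ± 0.06 (Rcl1) to -0.64 ± 0.06 (Wdr75) with both drugs.

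Heatr1, another member of that early precursor complex, was the exception (chr13:12395027-12440289, plus strand). It stood at 3505, 3319.8 and 3613 in DMSO, 2917, 2721 and 3494 with ruxolitinib, 3469.8, 3679.6 and 3618 with GSK-LSD1 and 3521, 3480.3 and 3253 with both drugs. Ruxolitinib replicates 1 and 2 were below every other library, and the rest overlapped. Changes against DMSO were -0.20 ± 0.07, 0.05 ± 0.07 and -0.03 ± 0.07 (adjusted p = 0.153, 0.669 and 0.802), none past the test. It was the 1 gene of the 55 that passed as higher in any comparison, GSK-LSD1 against ruxolitinib, at 0.25 ± 0.07 (0.0149). That call was lost without ruxolitinib replicate 1 or 2 or GSK-LSD1 replicate 2 or 3. Lgals8 overlaps Heatr1 on the other strand, and the strandedness of the libraries is not given in the sources used here.

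All 15 large-subunit factors fell with GSK-LSD1 (median -0.42) and with both drugs (median -0.49). Gnl3 encodes nucleostemin, a nucleolar GTP-binding protein of stem and progenitor cells, and had 1857, 2091 and 2014 in DMSO, 1880.3, 1845 and 1735 with ruxolitinib, 1395, 1411 and 1469 with GSK-LSD1 and 1280.5, 1294 and 1183 with both drugs. It fell by 0.48 ± 0.06 with GSK-LSD1 and 0.66 ± 0.06 with both, with no overlap among the DMSO, GSK-LSD1 and combination libraries. Nop16, an early large-subunit factor, was at 941, 896 and 935 in DMSO, 873, 936 and 852 with ruxolitinib, 723, 675 and 625 with GSK-LSD1 and 608, 622 and 626 with both drugs, and fell by 0.46 ± 0.07 and 0.58 ± 0.07. Nip7, another factor of precursor processing, was at 751, 757 and 699 in DMSO, 731, 771 and 716 with ruxolitinib, 567, 552 and 577 with GSK-LSD1 and 498, 491 and 509 with both drugs, and fell by 0.38 ± 0.06 and 0.56 ± 0.06. Ruxolitinib and DMSO libraries were intermixed for both.

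The remaining 12 large-subunit genes ranged from -0.22 ± 0.07 (Pes1) to -0.58 ± 0.09 (Ddx18) with GSK-LSD1 and from -0.31 ± 0.07 to -0.69 ± 0.09 with both drugs, at the same ends. Pes1, Bop1 and Wdr12 form 1 complex that acts on the large-subunit precursor. Their changes with both drugs were -0.31 ± 0.07, -0.49 ± 0.07 and -0.46 ± 0.07. The GSK-LSD1 call of Pes1 was lost without DMSO replicate 2, GSK-LSD1 replicate 1 or GSK-LSD1 replicate 3 (adjusted p up to 0.0656). Mrto4, which has a pair of named pseudogenes, had the widest error of this step, -0.44 ± 0.12 with GSK-LSD1, and did not pass without GSK-LSD1 replicate 3 (0.0718).

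**Figure D3:**
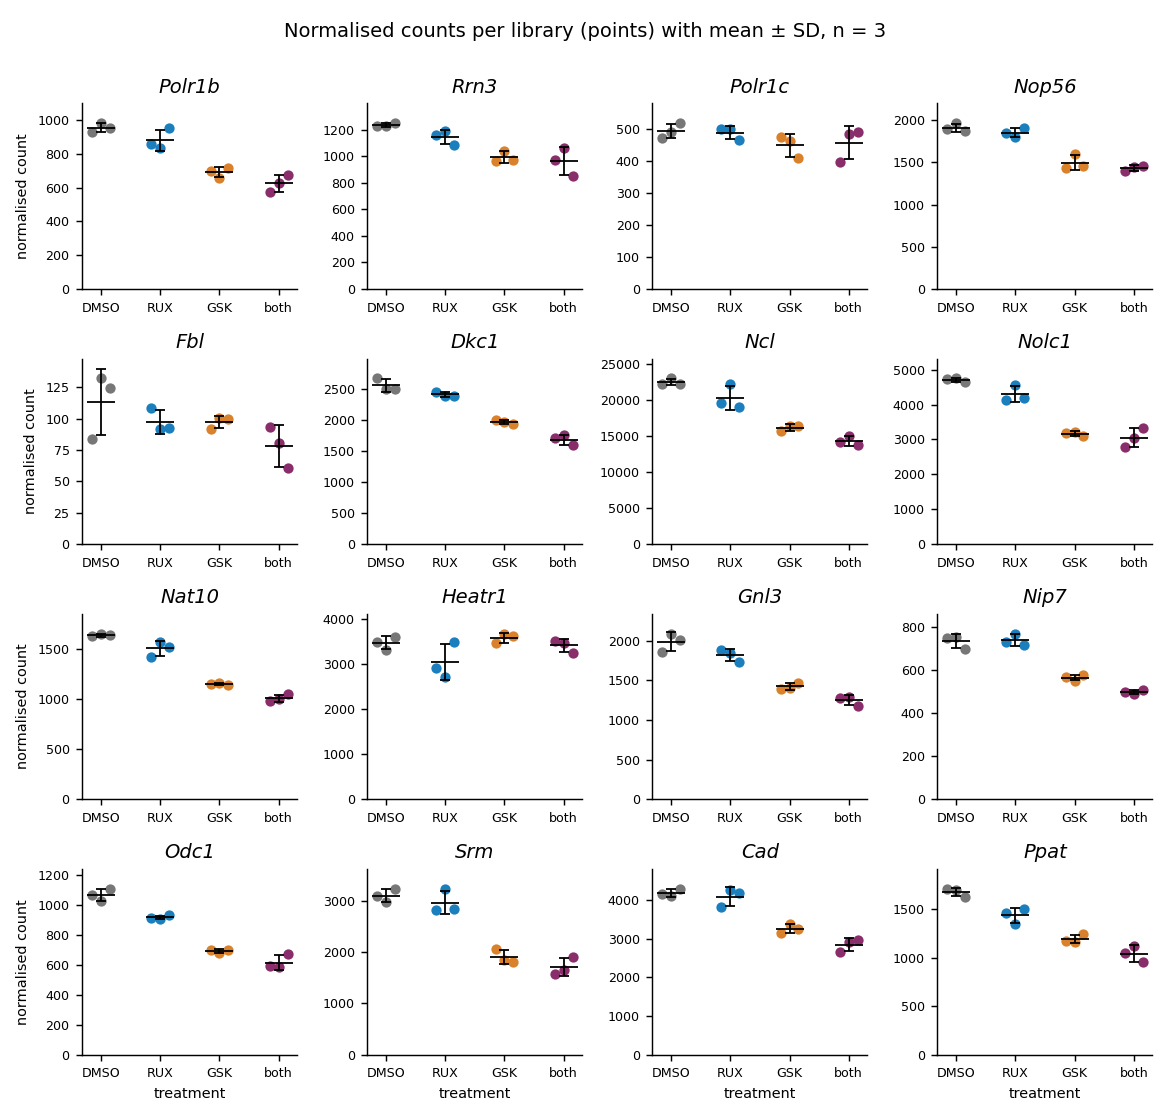
Normalised counts (vertical axes, from 0) of 16 of the 55 genes in each of the 12 libraries, as points, with the mean ± SD of the 3 libraries of DMSO, ruxolitinib (RUX), GSK-LSD1 (GSK) and both drugs. Srm goes from 3100.4 ± 128 in DMSO to 1706 ± 173 with both drugs, Fbl is the scattered low gene, and Heatr1 and Polr1c show overlapping groups.

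The 2 enzymes of polyamine synthesis had the largest changes. Odc1, ornithine decarboxylase, makes putrescine and is a classic MYC target (chr12:17544794-17551505, plus strand). Its counts were 1066, 1028 and 1107 in DMSO, 913, 907 and 929.9 with ruxolitinib, 696, 679 and 702 with GSK-LSD1 and 594, 582 and 669 with both drugs. Each group lay wholly below the one before it, and Odc1 fell, with changes of -35.1% for GSK-LSD1 and -42.4% for both drugs (adjusted p = 2.59e-07 and 3.75e-09). Srm, spermidine synthase, adds the next amine (chr4:148591503-148594993, plus strand). It was at 3101, 2972 and 3228 in DMSO, 2822, 3231 and 2844 with ruxolitinib, 2058, 1840.3 and 1808 with GSK-LSD1 and 1574, 1642 and 1902 with both drugs, changes of -38.7% for GSK-LSD1 and -45.1% for both drugs (2.54e-07 and 7.13e-09). Ruxolitinib replicate 2 was the highest of the 12 libraries for Srm.

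Further polyamine genes did not share this fall, with a median change of 0.17 for GSK-LSD1. Of 6 others tested, none fell with GSK-LSD1 and 1 rose, beside 15.5% lower and 17% higher of all tested genes. With both drugs 1 fell and 2 rose, beside 21.8% and 20.5%. With so few genes these counts do not set the list apart from all tested genes. Smox, spermine oxidase, which breaks spermine down, was at 206, 242 and 209 in DMSO, 241, 237 and 237 with ruxolitinib, 281, 296 and 272 with GSK-LSD1 and 317, 296 and 346 with both drugs. It rose by 0.37 ± 0.09 and 0.55 ± 0.09, with no overlap between libraries with and without GSK-LSD1. Sat1, which marks polyamines for export and oxidation, rose with both drugs (0.31 ± 0.10, adjusted p = 0.0195), and Sms, spermine synthase, fell (-0.28 ± 0.11, 0.0355).

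The 3 nucleotide enzymes all fell in both comparisons (medians -0.36 and -0.56). Ppat, which takes the committed step of purine synthesis, was at 1712, 1701 and 1632 in DMSO, 1465, 1353 and 1502 with ruxolitinib, 1174, 1166 and 1248 with GSK-LSD1 and 1052, 1123 and 957 with both drugs. Each group lay wholly below the one before it, and the change with both drugs was -0.69 ± 0.06. Ppat overlaps the purine gene Paics on the other strand at its start, so reads of the pair could be mixed if strand was not used. Cad, which opens pyrimidine synthesis, had 4176, 4103 and 4299 in DMSO, 3819, 4275 and 4192 with ruxolitinib, 3150.1, 3383 and 3254 with GSK-LSD1 and 2658, 2920.0 and 2969 with both drugs, with changes of -0.36 ± 0.06 and -0.56 ± 0.06. Nme1, a nucleoside diphosphate kinase, had 2076, 2166 and 2189 in DMSO, 2127, 2147 and 2048 with ruxolitinib, 1870.3, 1588 and 1640.4 with GSK-LSD1 and 1672, 1738 and 1735 with both drugs. It fell to about the same level with GSK-LSD1 (-0.34 ± 0.06) and with both drugs (-0.32 ± 0.06). A read-through gene, Gm20390, overlaps Nme1 on its own strand, so part of its signal is uncertain. Among 16 further genes of nucleotide synthesis 14 fell with GSK-LSD1 and 16 with both drugs, beside 15.5% and 21.8% of all tested genes, and none rose. With ruxolitinib 1 fell, Gmps of guanine nucleotide synthesis (-0.27 ± 0.07, adjusted p = 0.0453), beside 0.627% of all tested genes. Ctps, which makes CTP, changed by -0.63 ± 0.07 and Pfas, a purine enzyme, by -0.54 ± 0.06 with both drugs.

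Pa2g4, a nucleolar RNA-binding protein of growth control, was at 8132, 8094 and 7922 in DMSO, 7544, 8617 and 7512 with ruxolitinib, 6422, 5939 and 6156 with GSK-LSD1 and 5503, 5709 and 6083 with both drugs. It fell by 0.38 ± 0.06 and 0.48 ± 0.06, with ruxolitinib replicate 2 above all DMSO libraries.

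Adding GSK-LSD1 to ruxolitinib asks what the LSD1 inhibitor does when the JAK inhibitor is present. Of the 55 genes 51 fell in the combination against ruxolitinib and none rose, with 15.6% and 16% of all tested genes, and the median was -0.43. Libraries did not overlap for 50 genes, all lower (19.1% of all tested genes, with 19.3% wholly higher). The call of Rrn3 was lost without ruxolitinib replicate 2 and combination replicate 3 (limma adjusted p = 0.0741). Adding ruxolitinib to GSK-LSD1 gave a smaller change in the same direction for most genes. Against GSK-LSD1 alone the combination was lower for 50 of the 55, with a median of -0.11 (all tested genes -0.01), and for 19 genes every combination library lay below every GSK-LSD1 library (9.33% of all tested genes, with 8.81% wholly higher). With limma 1 gene passed as lower and none as higher, beside 0.348% and 1.05% of all tested genes, and 18 (32.7%) had an unadjusted p under 0.05, all lower, as against 12.3% of all tested genes in either direction and 6.59% lower. That gene was Dkc1, at -0.23 ± 0.05 (adjusted p = 0.0369), and its call was lost in 14 of 24 alternatives (0.0535 to 0.156), among them those without DMSO replicate 2 or 3, any 1 of the GSK-LSD1 libraries, or combination replicate 1 or 3. With ruxolitinib replicate 2 and combination replicate 3 both left out there were 5 such genes, Dkc1, Nat10, Srm, Odc1 and Cad, and over all genes 40 lower and 121 higher calls became 111 and 160 of 11492. After the GC correction there were also 5, Dkc1, Rrp12, Nat10, Srm and Cad, with 115 lower and 184 higher calls over all genes.

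The interaction tested whether the effect of both drugs differs from the sum of their single effects on the log2 scale. With limma none of the 55 genes passed in either direction, none had an unadjusted p under 0.05 (4.65% of all tested genes did), and the median was -0.03. Over all tested genes 0% passed as lower and 0.00871% as higher. The values nearest to a larger fall than the sum were those of Nip7 (-0.19 ± 0.09) and Cad (-0.16 ± 0.08), both with an adjusted p of 1.

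The effect of each drug can be set side by side in 2 pairs of groups that share no library. The change by GSK-LSD1 alone and its change on top of ruxolitinib had a Pearson correlation of 0.886 and a Spearman correlation of 0.819 across the 55 genes (Pearson 0.852 over all tested genes). The change by ruxolitinib alone and on top of GSK-LSD1 had 0.632 and 0.59 (0.387 over all tested genes). For 36 of the 55 genes the change was lower in the presence of the other drug, a single count for both pairs since each takes the interaction as its difference. These are descriptions across genes, which are not independent replicates.

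**Figure D4:**
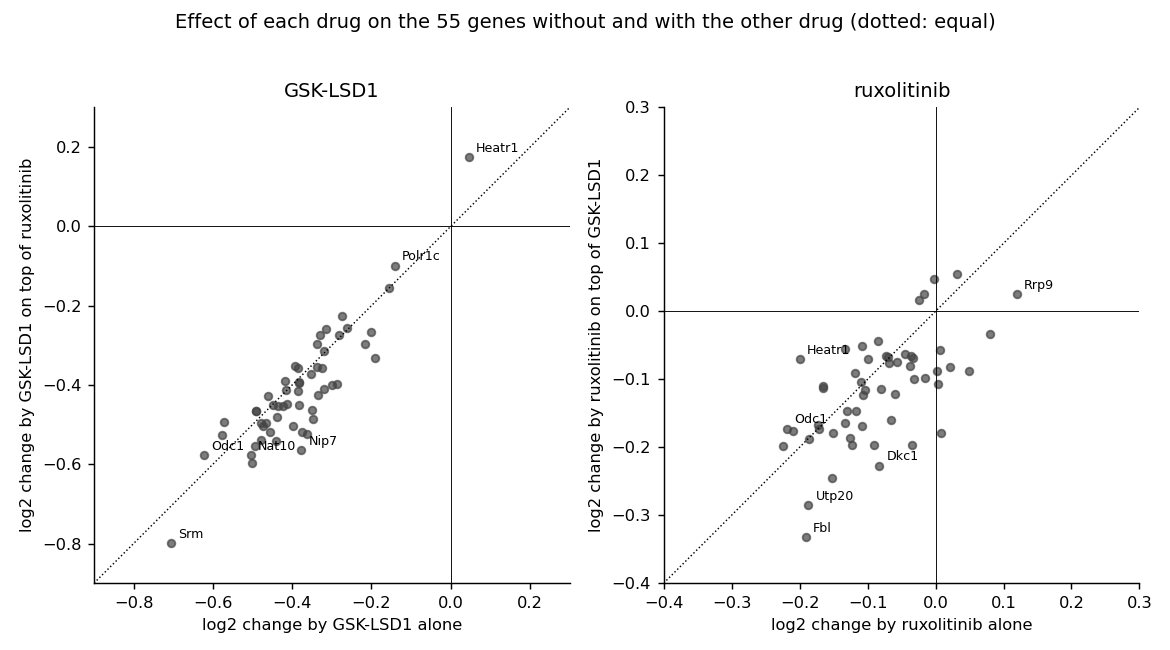
Log2 change of each of the 55 genes by a drug alone (horizontal) and by the same drug on top of the other (vertical), for GSK-LSD1 on the left and ruxolitinib on the right, each point 1 gene and the dotted line equality; the panels differ in scale. The GSK-LSD1 points lie along the line from Srm to Heatr1, and the ruxolitinib points lie in a smaller range with 36 of 55 below the line.

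The single drugs were also compared directly. Between GSK-LSD1 and ruxolitinib 47 of the 55 genes were lower with GSK-LSD1 and Heatr1 was higher, with 11.8% lower and 13.6% higher of all tested genes. The median was -0.31. For 47 genes every GSK-LSD1 library lay below every ruxolitinib library and for none above, where 19.8% of all tested genes lay wholly lower and 19.8% wholly higher. All 15 large-subunit genes passed, and the 7 genes past in neither direction were Polr1c, Polr1e, Fbl, Npm1, Utp20, Imp3 and Wdr3. The call of Ddx10 was lost without ruxolitinib replicate 2 and combination replicate 3 (limma adjusted p = 0.0633).

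Other genes of the same machinery, drawn up as lists of textbook members, moved in the same direction with smaller median falls. Of 109 further processing factors 82 fell and 1 rose with GSK-LSD1 (median -0.30), and 93 fell and 1 rose with both drugs (median -0.37). The shares of all tested genes, for each list here, were 15.5% lower and 17% higher with GSK-LSD1. With both drugs they were 21.8% and 20.5%. Of the 109 factors, 9 were further polymerase I genes, with 3 lower for GSK-LSD1 (Polr1d, Twistnb and Cd3eap). The same genes and Taf1d were lower for both drugs, Twistnb at -0.48 ± 0.10 and Cd3eap at -0.43 ± 0.09. The 10 further snoRNP genes had 8 and 9 lower, among them Nop10, a box H/ACA protein (-0.59 ± 0.07), and Naf1, which assembles those particles (-0.54 ± 0.07). In the small subunit 27 and 29 of 34 fell, led by Pno1 (-0.76 ± 0.07) and Cirh1a (-0.60 ± 0.06), and in the large subunit 32 and 37 of 40, with Rsl1d1 at -0.61 ± 0.05 and Nol9 at -0.54 ± 0.06. Gltscr2 went the other way with both drugs (0.21 ± 0.07, adjusted p = 0.0272).

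Of the exosome and other enzymes that trim precursor RNA 12 of 16 fell with GSK-LSD1 and 14 with both drugs, beside 15.5% and 21.8% of all tested genes. The exosome nuclease Dis3 changed by -0.65 ± 0.06 and the subunit Exosc6 by -0.57 ± 0.09 with both drugs. The nuclease Xrn2 rose with GSK-LSD1 (0.19 ± 0.06, adjusted p = 0.0281). Among the polymerases that make messenger and small RNAs, 6 and 7 of 12 polymerase II subunits were lower, such as Polr2d (-0.48 ± 0.07 with both drugs) and Polr2h (-0.55 ± 0.09). Of 10 polymerase III subunits 3 were lower with GSK-LSD1 and 6 with both drugs, such as Polr3f (-0.41 ± 0.09), and Polr3gl rose with both drugs (0.49 ± 0.12). The shares of all tested genes beside both polymerase lists were again 15.5% and 21.8% lower. Of 70 messenger RNAs of the ribosome's own proteins 8 (11.4%) were lower and none higher with GSK-LSD1 (median -0.12), beside 15.5% lower of all tested genes. With both drugs 10 (14.3%) were lower and 2, Rpl11 and Rps9, higher (median -0.10), beside 21.8% lower of all tested genes. These genes have many near-identical pseudogenes, so their counts are uncertain.

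**Figure D5:**
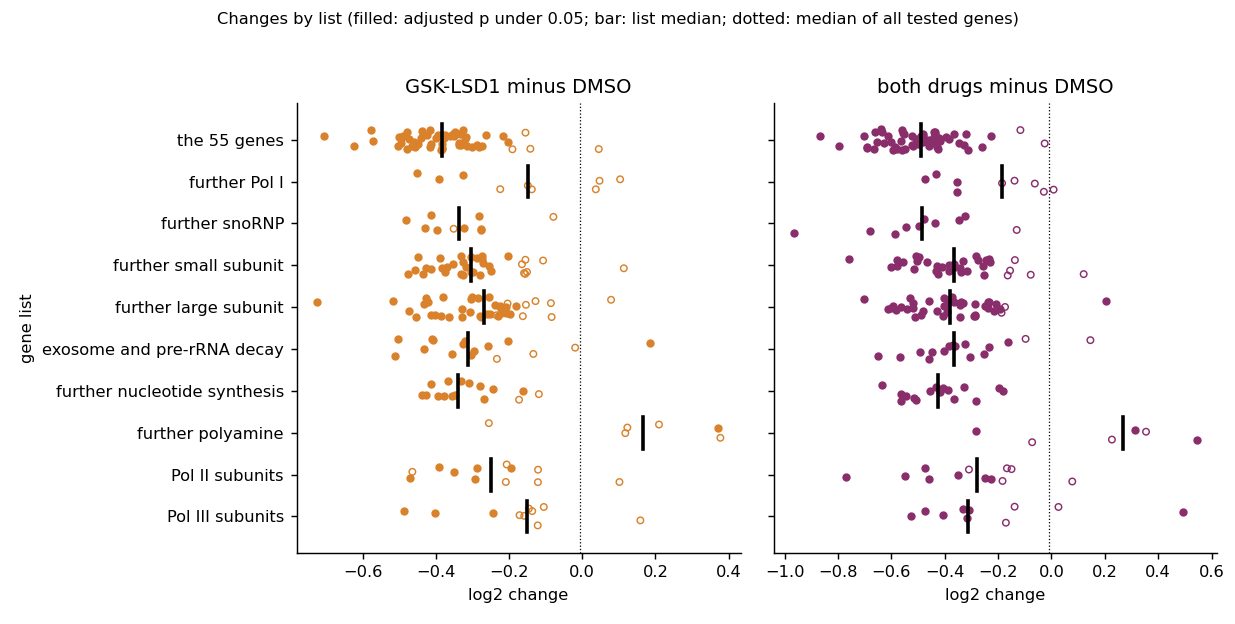
Log2 change against DMSO (horizontal) of the tested genes in the 55-gene set and in 9 further lists (vertical), for GSK-LSD1 and for both drugs; each point is 1 gene, filled at an adjusted p under 0.05, with a bar at the list's median and a dotted line at the median of all tested genes; the panels differ in scale. The medians lie below the dotted line in every list but the further polyamine genes.

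Myc itself fell with GSK-LSD1 and with both drugs. It was at 5662, 5421 and 5499 normalised counts in DMSO, 5493, 6302 and 5160.3 with ruxolitinib, 4451, 4176 and 4369.8 with GSK-LSD1 and 4169.7, 4265 and 4918 with both drugs. The fall was 0.35 ± 0.07 with GSK-LSD1 and 0.32 ± 0.07 with both drugs (adjusted p = 0.000634 and 0.00106), and ruxolitinib left it at 0.03 ± 0.07 (0.876). Mycn, its close relative, went from 1392, 1501 and 1567 in DMSO and 1163, 1283 and 1289 with ruxolitinib to 1114, 1092 and 1000.2 with GSK-LSD1 and 822, 761 and 935 with both. Each group lay wholly below the one before it, and Mycn fell by 0.48 ± 0.07 and 0.83 ± 0.07. Mxd1, which binds MAX and represses E-box genes as cells mature, rose by 0.53 ± 0.06 with GSK-LSD1 and 0.52 ± 0.06 with both drugs. Of all 10 tested genes of MYC and its partners 4 fell (Myc, Mycn, Max and Mlx) and 3 rose (Mxd1, Mxd3 and Mxd4) with GSK-LSD1. Of all tested genes 15.5% fell and 17% rose there. With both drugs the same genes passed save Mlx, beside 21.8% lower and 20.5% higher of all tested genes.

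The 55 genes lie on 19 chromosomes, and 9 of them hold 24 snoRNA genes on their own strand, 5 in Nop56, 4 in Nop58 and 3 each in Ncl, Wdr43 and Gnl3. With both drugs these 5 hosts changed by -0.42 ± 0.06, -0.56 ± 0.06, -0.65 ± 0.06, -0.59 ± 0.05 and -0.66 ± 0.06. The snoRNAs themselves were not analysed here. Transcripts of the 55 genes had a median GC of 50.5%, against 50.1% for all tested genes that had a value. With GSK-LSD1 the Spearman correlation of change and GC was -0.16 among the 55 and 0.0978 over all such genes. On the other strand 20 of the 55 overlap another gene, such as Idh3b for Nop56 and Parp3 for Rrp9, and their counts could include its reads if strand was not used.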

How the data were processed

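RNA of 12 libraries was sequenced, 3 for each of 4 treatments. The deposited table holds a normalised signal per gene symbol and library. From the values it appears to be gene read counts divided by 1 factor per library, with 1e-05 added. Without the constant, every value lay within 0.01 of a whole multiple of the library's smallest step (0.986 to 1.027). Per the submitters' processing notes, STAR, DESeq2 and the builds mm10 and GRCm38 were used, without versions or roles. Annotation, counting program and strand setting are not given in the sources used here. Libraries were made from total RNA by BGI, per the labels' protocols. All 12 columns matched a library.

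The constant was subtracted. Of 24411 symbols, 7367 were at 0 throughout and 25 had been turned into dates. Genes with a mean of at least 10 (11484) were fitted as log2(value + 1) with limma 3.58.1 in R 4.3.3, with a variance trend, 1 mean per group and 8 residual degrees of freedom. P-values are two-sided and Benjamini-Hochberg adjusted over all tested genes of each of 7 comparisons, and a gene passed at an adjusted p under 0.05. No count test was run, because the values are normalised and the multiples of the smallest step were not established as read counts. The procedure was tested on simulated data. Positions, exon lengths and overlaps are from GENCODE vM21 (GRCm38), matched by symbol, with 1-based coordinates.

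The members and lists were chosen with earlier results of these data known. Values in every library are given for the 3 members of each step with the smallest p for both drugs against DMSO, for genes of prior interest, and for members that passed against the majority, failed with either GSK-LSD1 group against DMSO, or passed with ruxolitinib, between the combination and GSK-LSD1, or in the interaction. Of each further list the 2 genes with the smallest p are named, save 1 that is not reported here. Other names (ends of ranges, small counts, polymerase subunits beyond these) were chosen after their values were seen. The cytosolic ribosomal protein list takes symbols of the Rpl and Rps families. The GC correction was a robust loess of each library on transcript GC (span 0.5), put in place of an ordinary loess after that was seen to shift the median of all genes. Alternatives were pseudocounts of 0.25 and 5, any gene above 0 or only those with a mean of 50 or more, scaling to equal totals, quantile normalisation, the GC correction, a replicate block with and without it, no variance trend, only the groups compared, each library left out, and ruxolitinib replicate 2 and combination replicate 3 left out together.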

Additional observations from a re-analysis of the deposited data

How the results depend on the processing

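Over 24 alternatives (23 for the interaction) no result changed direction. Of the 55 genes 48 to 51 were lower with GSK-LSD1 than with DMSO (46 of the 51 in every alternative), 52 to 53 with both drugs (51 of the 53 in every one), 50 to 52 in the combination against ruxolitinib, and 40 to 49 with GSK-LSD1 against ruxolitinib. For ruxolitinib against DMSO the count of lower genes went from 0 to 4 with the GC correction, 3 with the replicate block and GC correction together, 4 without ruxolitinib replicate 2 and combination replicate 3, and 0 to 3 when single libraries were left out (1 without ruxolitinib replicate 3, Heatr1; 3 without combination replicate 3, Ddx21, Odc1 and Ppat). The median for GSK-LSD1 against DMSO was -0.35 under quantile normalisation. That for both drugs was -0.45 under quantile normalisation, -0.52 with the GC correction, with or without the replicate block, -0.52 without both libraries, and -0.52 to -0.47 with single libraries left out. In the combination against ruxolitinib 1 gene was higher under equal totals, quantile normalisation and the GC correction with or without the replicate block, and 0 to 1 without single libraries (1 without ruxolitinib replicate 3 or combination replicate 3). Between the combination and GSK-LSD1 the 1 lower gene became 0 under no filter, equal totals, quantile normalisation, the replicate block, no variance trend and only the groups compared, 5 with the GC correction, 3 with the block and GC correction, 5 without both libraries, and 0 to 1 without single libraries. The count of genes higher with GSK-LSD1 than with ruxolitinib, 1 (Heatr1), became 0 with no variance trend and 0 to 1 without single libraries. The cause of these shifts was not tested.

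The replicate numbers did not pair the libraries: 18 pairs with the same number had correlations of their deviations from -0.148 to 0.150 (median -0.006), and 4 of 12 libraries correlated best with their own number. With the replicate block the counts of lower genes were 51 for GSK-LSD1, 53 for both drugs, 0 for ruxolitinib against DMSO, 51 for the combination against ruxolitinib, 0 against GSK-LSD1, and 46 for GSK-LSD1 against ruxolitinib. With 3 libraries a group, changes as small as those of ruxolitinib lie near the error of the fit, and values scaled within a library give no absolute amounts.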

Other observations

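Targets of p53, which stalled ribosome assembly is known to activate in many cells, were read as a further list of 11 tested genes. With GSK-LSD1 2 fell (Ccng1 and Aen) and 2 rose (Bbc3 and Trp53inp1), beside 15.5% lower and 17% higher of all tested genes. With both drugs 3 fell (Ccng1, Aen and Pmaip1) and 4 rose (Bbc3, Trp53inp1, Sesn2 and Zmat3), beside 21.8% lower and 20.5% higher. Whether p53 was activated was not tested. Trp53inp1, a p53-induced protein of stress responses, stood at 191, 194 and 178 in DMSO, 189, 172 and 189 with ruxolitinib, 279, 316 and 348 with GSK-LSD1 and 409, 396 and 316 with both drugs. All 6 libraries with GSK-LSD1 were above all 6 without it, with changes of 0.74 ± 0.10 and 0.98 ± 0.10 (limma adjusted p = 1.59e-05 and 2.11e-07). Aen, a nuclease of apoptosis, stood at 595, 566 and 625 in DMSO, 490.5, 616 and 514 with ruxolitinib, 459.6, 417 and 386 with GSK-LSD1 and 341, 365 and 472 with both drugs. It changed by -0.50 ± 0.11 and -0.61 ± 0.11 (limma adjusted p = 0.000983 and 8.32e-05), and all 6 libraries with GSK-LSD1 were below all 6 without it.

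Genes of the myeloid progenitor marker list moved only in part as the 55 genes did. Of its 8 genes, 4 rose with ruxolitinib, beside 1% of all tested genes, where none of the 55 passed. These were the granule protease genes Elane, Prtn3 and Ctsg and the peroxidase gene Mpo. With GSK-LSD1 the 3 proteases and Ms4a3 fell, as most of the 55 did, and Kit rose. All tested genes had 15.5% lower and 17% higher there. With both drugs Ms4a3 fell and Mpo and Kit rose, beside 21.8% lower and 20.5% higher of all tested genes. Of the 3 tested stromal and endothelial genes all rose with GSK-LSD1, beside 17% of all tested genes. With both drugs 2 rose, Pdgfrb and Pecam1, beside 20.5%. Pecam1 is also made by white blood cells, and whether other cells were present was not tested. No megakaryocyte gene passed against DMSO in any comparison.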
